A study of Mus musculus with 6 samples.

Results

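The 10 genes described here encode protein kinase A (PKA), its peptide inhibitors and one of its anchors. They are the catalytic subunit genes Prkaca and Prkacb, the regulatory subunit genes Prkar1a, Prkar1b, Prkar2a and Prkar2b, the inhibitor genes Pkia, Pkib and Pkig, and the anchor gene Akap12. They were taken from the table by symbol, as a set named with earlier results of these data known, and all 10 were found among the 39179 genes of the expression table.

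PKA is the main kinase through which the second messenger cyclic AMP acts. In the resting enzyme a pair of regulatory subunits holds a pair of catalytic subunits inactive, and binding of cyclic AMP to the regulatory subunits sets the catalytic subunits free. Type I regulatory subunits give a holoenzyme that is largely soluble, whereas type II subunits are mostly tethered by A-kinase anchoring proteins. In osteocytes, the cells embedded in bone matrix, the parathyroid hormone receptor signals largely through cyclic AMP and PKA, and the salt-inducible kinases are among the enzymes that PKA inhibits.

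Ocy454 is a mouse osteocytic cell line that grows at 33 °C and was held at 37 °C for 14 days before treatment. Cells received vehicle (PBS with 25 mM HCl, per the labels), PTH 1-34 at 1 nM or YKL-05-093, an inhibitor of salt-inducible kinases, at 0.5 µM, each for 4 h. RNA-seq gave 2 libraries per condition, 6 in all, and asked how far the 2 agents regulate the same genes. The study's methods give DMSO as the solvent of its compounds in culture, so whether the vehicle matched the solvent of YKL-05-093 is not clear. All cells were handled alike until the compounds were added, and the labels do not say whether the 2 libraries of a condition came from separate cultures. The p-values below therefore measure the spread between these libraries, which may be technical.

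The deposited RPKM values are reads divided by gene length and by a total per library. Their steps gave totals of 17505798 (vehicle replicate 1) to 27983585 reads (vehicle replicate 2), with the treated libraries between 19073347 and 21607344. Of these 99.7% were counted in listed genes, so the totals are gene-counted reads and not the number sequenced. The 2 vehicle libraries stood farther apart than the treated pairs, with a typical gene differing between duplicates by 0.333 in log2 (median, vehicle) as against 0.108 (PTH) and 0.103 (YKL-05-093). Vehicle replicate 1 lay farther from the mean of the treated libraries than replicate 2 (median absolute log2 difference 0.304 and 0.183). Both comparisons with vehicle rest on the vehicle pair. For the members, each is given with and without either vehicle library where this changes a call or a direction. Such a fit leaves 1 vehicle library, and its spread comes from the treated pair alone. For every member, only the difference is therefore given from such a fit, without a p-value. The other genes below are given against vehicle with both vehicle libraries only. Of the osteocyte markers, Sost, Fgf23, Mepe and Dkk1 lay between 0 and 0.136 RPKM and Dmp1 between 0.376 and 1.16 RPKM, while Col1a1, the main bone collagen gene, lay between 259 and 430 RPKM. The defining osteocyte transcript Sost was thus at or near 0 in all 3 conditions. Pdpn, a marker of early osteocytes, lay between 53.1 and 171 RPKM. Summed over the 13 osteocyte and osteoblast markers, the level was 482 to 591 RPKM with vehicle, 662 to 738 RPKM with PTH and 553 to 649 RPKM with YKL-05-093, most of it Col1a1. With PTH, 2 of the 9 tested rose (Pdpn and Bglap, by 1.44 and 1.58 in log2) and 2 fell (Sp7 and Irx5, with differences of -1.97 and -1.11), and with YKL-05-093 0 of the 9 changed by limma. Of the macrophage and osteoclast markers, Ptprc, Csf1r and Acp5 did not exceed 0.133 RPKM in any library, and Adgre1 was not listed. Cd68 lay between 3.69 and 4.42 RPKM, and Ctsk carried 74.1 to 94.7 of the list's 78.1 to 99.2 RPKM. The endothelial list summed to 0.513 to 0.652 RPKM with vehicle, 0.91 to 1.161 RPKM with PTH and 1.477 to 1.791 RPKM with YKL-05-093. In it Cdh5 was at 0, and Kdr rose with YKL-05-093 by 1.416 in log2 (limma, adjusted p = 0.03773) but did not pass with PTH. The chondrocyte list summed to 1.741 to 2.311 RPKM, 3.079 to 3.117 RPKM and 3.134 to 3.378 RPKM in the same order. In it Acan lay between 0 and 0.0189 RPKM. Col2a1 rose with PTH by 1.298 in log2 (limma, adjusted p = 0.0147) but did not pass with YKL-05-093. The adipocyte list summed to 0 to 0.058 RPKM with Lep at 0. The part of these marker levels in the PKA results was not tested.

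The PKA genes ranged from one of the more abundant transcripts of these cells to one with no reads. RPKM is scaled by gene length, and the length used is not stated, so an order between genes depends on it. In vehicle the order by RPKM was Prkaca, Prkar1a, Prkacb, Prkar2b, Prkar2a, Akap12, Pkig, Prkar1b, Pkia and Pkib. Prkacb, Prkar2b and Prkar2a overlapped one another in their vehicle libraries, as did Akap12 with Pkig and Pkig with Prkar1b, so neighbours within these runs did not differ beyond their spread. Prkaca lay above 94.7% and Prkar1a above 90.0% of the genes tested. Of the 10 genes, 9 had reads in at least 1 library and 8 passed the filter of 0.5 RPKM in at least 2 of the 6 libraries.

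**Figure D1:**
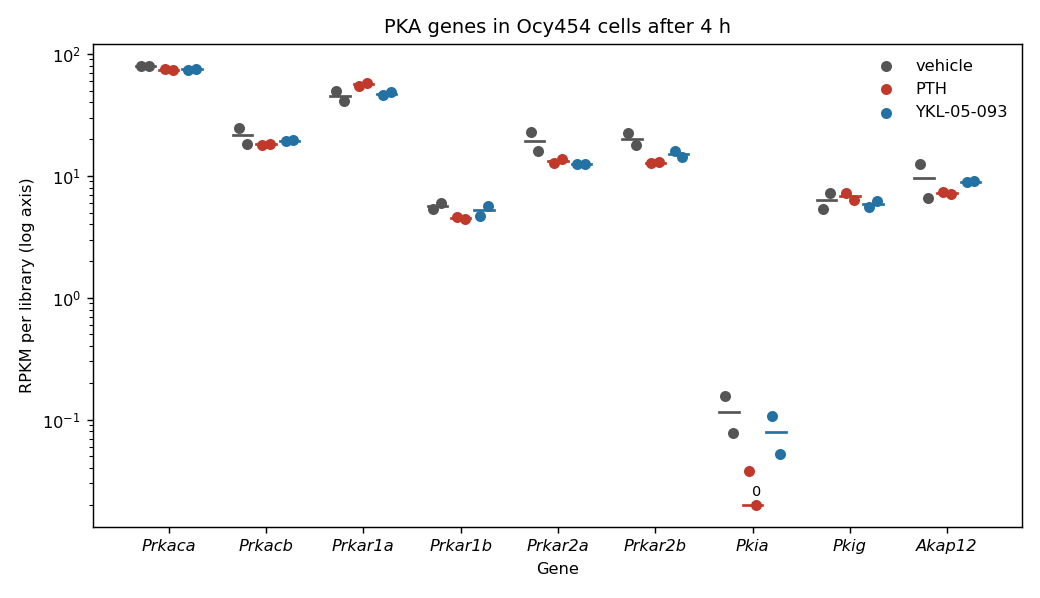
RPKM of 9 PKA genes on a log axis, with 1 point per library, a bar at the mean of each condition and colours for vehicle, PTH and YKL-05-093. Pkib is left out because it had 0 reads in every library, and the single Pkia library at 0 is drawn at the foot of the axis and marked 0. Prkaca varied by 1.07-fold over the 6 libraries and Akap12 by 1.91-fold, the latter between the vehicle libraries.

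The promoters of the members were searched for the cyclic AMP response element (CRE), the palindrome TGACGTCA bound by CREB, and for its half-site TGACG or CGTCA, on both strands, in RefSeq windows from 250 bases before to 50 bases after each start (GRCm38.p6). Of the 10 members 8 had a window, and Pkia and Akap12 were not in the table. The full element occurred in 1 member, Prkar1a, and the half-site, which the full element contains, in 6. Of all 27025 genes with a window, 2.03% held the full element and 23.0% the half-site. Counted by window, since genes differ in their number of windows, 2 of the members' 24 held the full element and 8 the half-site, beside 1.79% and 20.8% of all 32851 windows. Both windows with the full element belong to Prkar1a, which has 6 windows. These matches describe letters in a window and are not binding sites.

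The 250 bases before a start are printed, without the 50 after it that were also searched. The Prkar1a stretch (chr11:109650699-109650948, plus strand) is shown because Prkar1a alone holds the full element, in capitals (a further half-site stays in lower case). The Prkar2b stretch (chr12:32061278-32061527, minus strand) is shown because Prkar2b had the largest difference from vehicle with PTH, which did not pass the test. No window of Prkar2b or of Pkib holds a half-site. A link between these letters and the differences was not tested.
Prkar1a: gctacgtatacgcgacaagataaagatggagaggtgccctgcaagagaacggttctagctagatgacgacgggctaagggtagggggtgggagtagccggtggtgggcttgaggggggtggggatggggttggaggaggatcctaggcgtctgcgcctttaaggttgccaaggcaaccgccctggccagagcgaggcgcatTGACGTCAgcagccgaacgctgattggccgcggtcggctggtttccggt
Prkar2b: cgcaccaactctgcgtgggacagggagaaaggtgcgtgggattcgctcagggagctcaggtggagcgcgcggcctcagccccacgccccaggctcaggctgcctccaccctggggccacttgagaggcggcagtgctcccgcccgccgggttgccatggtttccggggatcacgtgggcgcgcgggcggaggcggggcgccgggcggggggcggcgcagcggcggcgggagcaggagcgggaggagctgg
The Prkar1a element lies at chr11:109650900-109650907, 49 to 42 bases before the RefSeq start. It overlaps no annotated exon and lies within the Prkar1a gene, downstream of its outermost annotated start, with the next exon beginning 14 bases past its end. Stretches around a half-site (capitals) of the catalytic genes are shown for comparison, for Prkaca at chr8:83972841-83972880 on the plus strand and for Prkacb at chr3:146813026-146813065 on the minus strand.
Prkaca: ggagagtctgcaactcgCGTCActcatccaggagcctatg
Prkacb: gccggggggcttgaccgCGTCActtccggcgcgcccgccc

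Both catalytic subunits were expressed, and neither passed the test in any comparison with both libraries of each condition. Prkaca (ENSMUSG00000005469, chr8:83972993-83996443, plus strand, GRCm38) encodes Cα, the catalytic subunit found in nearly all tissues. Its level was 79.7 and 79.2 RPKM in the vehicle libraries, 74.6 and 74.2 RPKM with PTH, and 74.2 and 75.4 RPKM with YKL-05-093. All 4 treated libraries lay below both vehicle libraries, and the treated groups overlapped each other. The difference between PTH and YKL-05-093 was -0.01 on the log2(RPKM + 0.1) scale, the scale of all tests below, with a 95% interval from -0.14 to 0.13. The highest Prkaca library was 1.07 times the lowest, and the vehicle libraries differed by 0.01 in log2, and only 1.9% of the genes tested had a smaller gap. A separately listed pseudogene, Prkaca-ps1, held 7 to 16 reads per library against 3184 to 5058 for Prkaca.

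Prkacb (ENSMUSG00000005034, chr3:146729574-146812990, minus strand) encodes Cβ, the second widely used catalytic subunit. Its level was 24.6 and 18.4 RPKM with vehicle, 18.0 and 18.3 RPKM with PTH, and 19.2 and 19.6 RPKM with YKL-05-093. Only the first vehicle library stood high. The PTH libraries lay just below the lower vehicle library, and the YKL-05-093 libraries lay between the vehicle libraries. Against vehicle the differences were -0.23 (95% interval -0.69 to 0.23) with PTH and -0.13 (-0.59 to 0.33) with YKL-05-093. Without the second vehicle library they were -0.43 and -0.34, and without the first -0.02 and 0.08. Prkacb made up 23.6% and 18.9% of the catalytic RPKM with vehicle, 19.4% and 19.8% with PTH, and 20.5% and 20.7% with YKL-05-093. About the same balance of Cα to Cβ RNA was thus measured in the 4 treated libraries. Counted in reads, without division by gene length, the Prkacb share was 52.8% and 45.8%, 46.7% and 47.3%, and 48.4% and 48.6% in the same order.

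Among the regulatory subunits, type I and type II RNA stood in different proportions in the 3 conditions. Prkar1a (ENSMUSG00000020612, chr11:109649405-109669656, plus strand) encodes RIα, the regulatory subunit without which catalytic activity is unrestrained in most cells. Its level was 49.8 and 41.3 RPKM with vehicle, 54.8 and 57.9 RPKM with PTH, and 46.2 and 48.5 RPKM with YKL-05-093. Both PTH libraries exceeded the other 4, and the YKL-05-093 libraries lay between the vehicle libraries. PTH was higher than YKL-05-093 by 0.25 ± 0.07 in log2 (SE, n = 2 against 2), a fold of 1.19 with a 95% interval from 1.08 to 1.31, and this passed the test (limma, adjusted p = 0.0238). In bulk RNA such a difference cannot be told apart from one in the share of cells that express the gene. Against vehicle the difference was 0.31 with PTH (95% interval -0.11 to 0.74, adjusted p = 0.556 by limma) and 0.06 with YKL-05-093 (-0.36 to 0.48). Without the first vehicle library the PTH difference was 0.45 and without the second it was 0.18.

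Prkar1b (ENSMUSG00000025855, chr5:139017306-139150001, minus strand) encodes RIβ, known mainly from the nervous system. Its level was 5.33 and 5.99 RPKM with vehicle, 4.61 and 4.38 RPKM with PTH, and 4.72 and 5.68 RPKM with YKL-05-093. Both PTH libraries were the lowest of the 6, and the YKL-05-093 libraries overlapped vehicle. The PTH difference from vehicle was -0.32 (95% interval -0.70 to 0.05) and did not pass the test (limma, adjusted p = 0.454). It was -0.41 without the first vehicle library and -0.24 without the second. Prkar1b shares exon bases with the same-strand gene Gm15672, so its reads could have been split or set aside in counting.

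The type II genes were the members whose treated libraries lay farthest below vehicle. Prkar2a (ENSMUSG00000032601, chr9:108689314-108750436, plus strand) encodes RIIα, the anchored regulatory subunit of most tissues. Its level was 22.8 and 15.9 RPKM with vehicle, 12.8 and 13.7 RPKM with PTH, and 12.5 and 12.6 RPKM with YKL-05-093. All 4 treated libraries lay below both vehicle libraries, which themselves differed by 0.51 in log2. The difference from vehicle was -0.52 with PTH (95% interval -1.01 to -0.04, adjusted p = 0.331 by limma) and -0.60 with YKL-05-093 (-1.09 to -0.12, adjusted p = 0.423 by limma), and neither passed. Between PTH and YKL-05-093 it was 0.08 (95% interval -0.07 to 0.23).

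Prkar2b (ENSMUSG00000002997, chr12:31958476-32061296, minus strand) encodes RIIβ, best known from brain and fat. Its level was 22.5 and 17.9 RPKM with vehicle, 12.7 and 13.0 RPKM with PTH, and 15.9 and 14.4 RPKM with YKL-05-093. The 3 conditions did not overlap, with vehicle highest and PTH lowest. PTH stood at 0.640 of vehicle (log2 -0.64 ± 0.18, SE, 95% interval -1.06 to -0.23), which did not pass over all genes (limma, adjusted p = 0.153). The YKL-05-093 difference from vehicle was -0.41 (95% interval -0.83 to 0.01), and that of PTH from YKL-05-093 was -0.24 (-0.39 to -0.08, adjusted p = 0.0581 by limma).

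The differences of both type II genes from vehicle depended on the vehicle pair in size but not in direction. The difference of Prkar2b with PTH was -0.48 without the first vehicle library and -0.80 without the second. The difference of Prkar2a was -0.27 and -0.78 with PTH, and -0.35 and -0.86 with YKL-05-093, in the same order. Prkar2b with YKL-05-093 differed by -0.25 and -0.57. With both vehicle libraries, the Prkar2b difference of PTH from vehicle passed after trends in gene length and GC content were removed (log2 -0.62, limma, adjusted p = 0.0181). In that fit 866 of all genes passed, as against 313 without the correction.

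**Figure D2:**
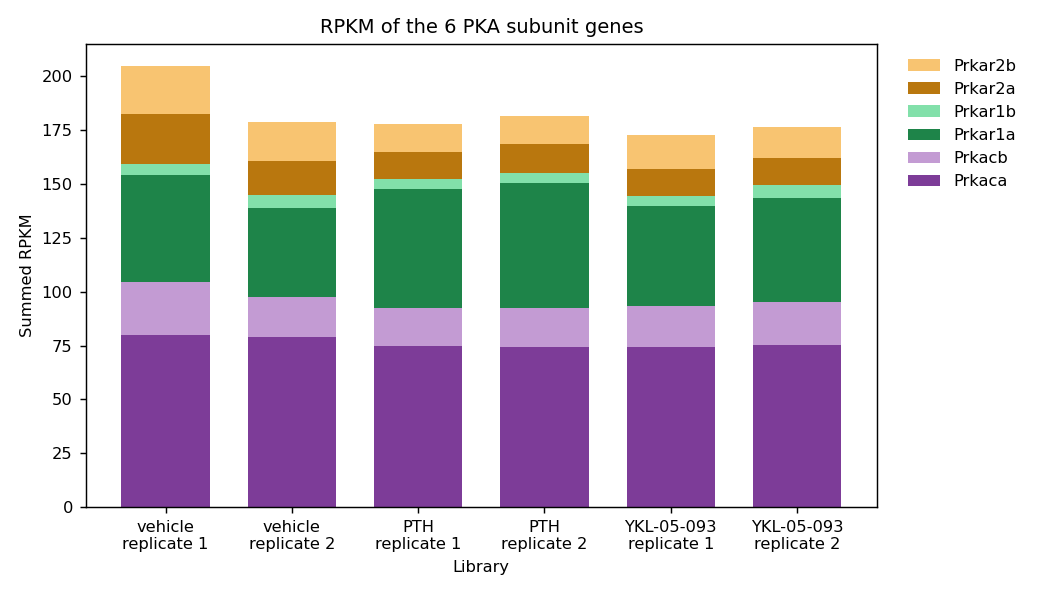
Stacked bars of the RPKM of the 6 PKA subunit genes in each library, with catalytic subunits in purple, type I regulatory subunits in green and type II regulatory subunits in orange. The summed level was 179 to 205 RPKM with vehicle and 173 to 181 RPKM in the treated libraries, and the orange type II share is largest in the vehicle bars.

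The regulatory subunit RNA was also summed by type. Type II RNA came to 45.2 and 33.9 RPKM with vehicle, 25.4 and 26.7 RPKM with PTH, and 28.4 and 26.9 RPKM with YKL-05-093. Type I RNA came to 55.1 and 47.3 RPKM, 59.5 and 62.3 RPKM, and 50.9 and 54.1 RPKM in the same order. Type I thus made up 54.9% and 58.3% of the regulatory RPKM with vehicle, 70.0% and 70.0% with PTH, and 64.2% and 66.8% with YKL-05-093. No 2 conditions overlapped in this share, which does not depend on how a library is scaled. The means were 56.6% ± 2.36 (SD, n = 2), 70.0% ± 0.0116 and 65.5% ± 1.82, so PTH was 13.4 and YKL-05-093 8.91 percentage points above vehicle, and PTH was 4.52 points above YKL-05-093. Each of these differences had an exact two-sided permutation p of 0.333, the smallest that 2 libraries against 2 can give. Leaving out any 1 library kept the PTH difference from vehicle between 11.8 and 15.1 points and the YKL-05-093 difference between 7.24 and 10.6 points.

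Within type II, Prkar2b made up 49.6% and 53.0% with vehicle, 49.7% and 48.7% with PTH, and 56.0% and 53.4% with YKL-05-093. YKL-05-093 lay above vehicle and PTH in this share, and PTH overlapped vehicle. Catalytic over regulatory RPKM was 1.04 and 1.20 with vehicle, 1.09 and 1.04 with PTH, and 1.18 and 1.17 with YKL-05-093. The treated ratios lay within the range of the vehicle pair, and PTH lay below YKL-05-093 without overlap (difference -0.11, exact permutation p = 0.333). Counted in reads, without division by gene length, the ratio was 0.914 and 0.970 with vehicle, 0.883 and 0.849 with PTH, and 0.978 and 0.969 with YKL-05-093, so there PTH lay below both vehicle libraries. These are ratios of RNA and say nothing of the protein subunits.

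**Figure D3:**
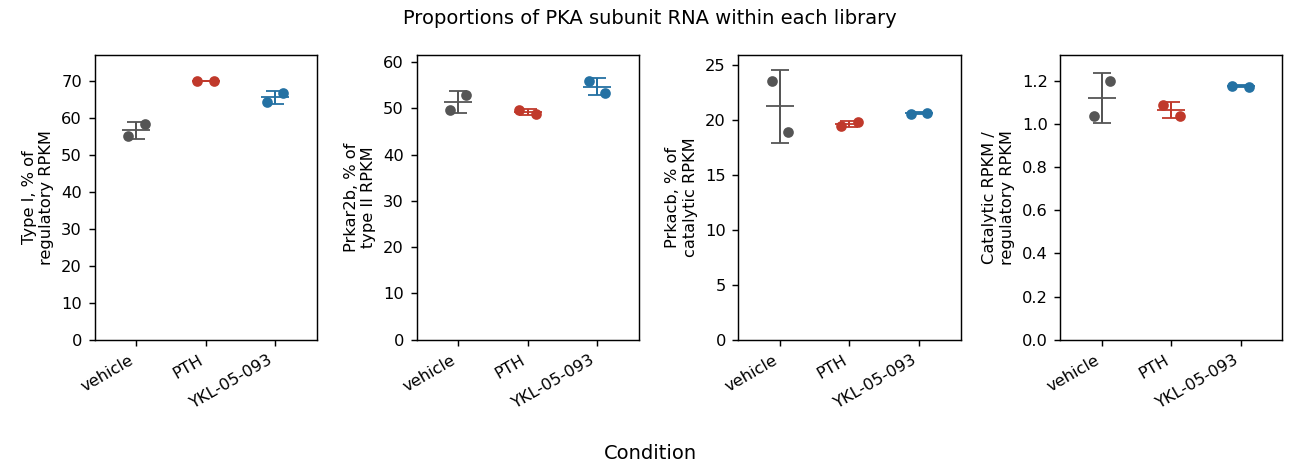
Per-library proportions of PKA subunit RNA, with 1 point per library, the mean and the SD of each condition (n = 2). The type I share of regulatory RPKM separates the 3 conditions (means 56.6%, 70.0% and 65.5%), whereas the Prkacb share and the ratio of catalytic to regulatory RPKM do not separate the treated libraries from vehicle.

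The inhibitors were represented by Pkig alone at a level that could be tested. Pkig (ENSMUSG00000035268, chr2:163658386-163726158, plus strand) encodes PKIγ, a small protein that blocks free catalytic subunits and carries them out of the nucleus. Its level was 5.33 and 7.26 RPKM with vehicle, 7.18 and 6.38 RPKM with PTH, and 5.53 and 6.27 RPKM with YKL-05-093. Both treatments lay within the vehicle range, and PTH lay above YKL-05-093 without overlap by 0.20 (95% interval -0.0033 to 0.40, adjusted p = 0.233 by limma). The PTH difference from vehicle was 0.12 (95% interval -0.34 to 0.58) with both vehicle libraries, -0.10 without the first and 0.34 without the second. Relative to the catalytic RPKM, Pkig stood at 0.0511 and 0.0744 with vehicle, 0.0775 and 0.0690 with PTH, and 0.0592 and 0.0659 with YKL-05-093.

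Pkia (ENSMUSG00000027499, chr3:7366669-7445366, plus strand), which encodes the inhibitor PKIα of muscle and brain, was near the limit of detection. It had 10 and 8 reads with vehicle, 3 and 0 with PTH, and 8 and 4 with YKL-05-093, or at most 0.155 RPKM. These counts are too few to compare conditions at this depth. Pkib (ENSMUSG00000019876, chr10:57631981-57741112, plus strand), which encodes PKIβ, had 0 reads in all 6 libraries, and such a count of 0 allows a level of up to 0.0091 to 0.0145 RPKM (3 reads per library, counting error only).

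Akap12 (ENSMUSG00000038587, chr10:4266380-4359470, plus strand) encodes gravin, a large scaffold that holds PKA near the plasma membrane. Its level was 12.6 and 6.56 RPKM with vehicle, 7.39 and 7.04 RPKM with PTH, and 8.82 and 8.99 RPKM with YKL-05-093. All 4 treated libraries lay between the vehicle libraries, and PTH lay below YKL-05-093 without overlap. The gap between the vehicle libraries was 0.93 in log2, larger than that of 93.1% of the genes tested. The difference of PTH from YKL-05-093 was -0.30 ± 0.07 in log2 (SE, n = 2 against 2), a fold of 0.813 with a 95% interval from 0.731 to 0.904, which passed the test (limma, adjusted p = 0.0125). Against vehicle the direction turned with the library used. The PTH difference was -0.33 with both vehicle libraries, 0.13 without the first and -0.79 without the second. The YKL-05-093 difference was -0.03, 0.43 and -0.49 in the same order.

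As a list, the members that passed the filter gave no call against vehicle. With PTH, 0 of the 8 tested passed an adjusted p of 0.05 by limma, where 2.19% of all 14261 genes tested did, and 2 of the 8 had an unadjusted p under 0.05 by limma and also by voom on the recovered reads, beside 13.3% of all genes by either tool. With YKL-05-093, 0 of the 8 passed where 0.666% of all genes did, and 1 of the 8 had an unadjusted p under 0.05 by either tool, which is near the share of all genes (8.67% by limma and 8.65% by voom). The vehicle and PTH libraries did not overlap for 6 of the 8, which compares with 43.1% of all genes tested, with 5 lower (24.0% of all genes) and 1, Prkar1a, higher (19.1%). The vehicle and YKL-05-093 libraries did not overlap for 3 of the 8, against 37.8% of all genes, and all 3 were lower (22.1%). The members' median difference was -0.28 with PTH and -0.11 with YKL-05-093, beside -0.03 and -0.04 over all genes tested, and both comparisons used the same vehicle libraries.

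Between PTH and YKL-05-093, 2 of the 8 members changed, Prkar1a and Akap12, where 9.97% of all genes tested did. Prkar1a was higher with PTH, as were 4.85% of all genes, and Akap12 was lower, as were 5.11%. The libraries did not overlap for 7 of the 8, Prkaca being the exception, against 50.0% of all genes. Of these 4 were lower with PTH (23.7% of all genes) and 3 higher (26.3%). The members' median difference was -0.05 beside 0.01. The folds of the 8 members lay between 0.813 and 1.19. Both calls were lost without the filter on low values, with the spread trended on the mean value and with all 6 libraries in 1 fit. Leaving out single libraries gave adjusted p-values by limma of 0.0441 to 0.172 for Prkar1a, which kept its call only without YKL-05-093 replicate 2, and of 0.0255 to 0.117 for Akap12, which lost it without PTH replicate 2 or YKL-05-093 replicate 2. Prkar2b passed without YKL-05-093 replicate 2 (limma, adjusted p = 0.0308), by voom (adjusted p = 0.0462), with a filter of 1 RPKM (limma, adjusted p = 0.0458) and after length and GC correction (limma, adjusted p = 0.0318). Prkar1b passed without YKL-05-093 replicate 1 (log2 -0.33, limma, adjusted p = 0.041).

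**Figure D4:**
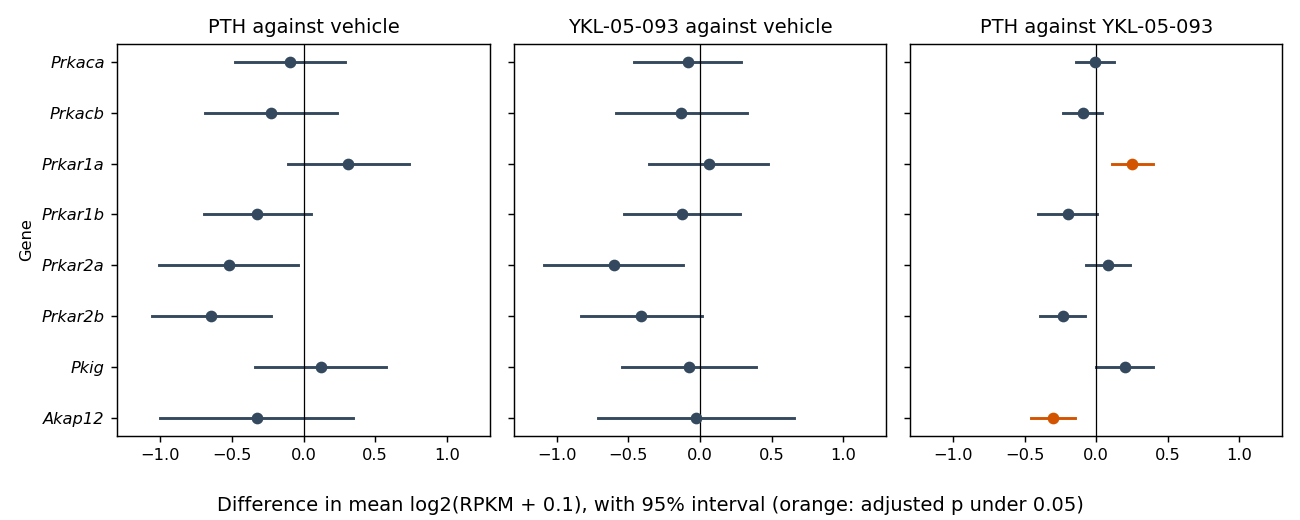
Differences in mean log2(RPKM + 0.1) of the 8 members that passed the filter, with 95% intervals from limma, in the 3 comparisons; orange marks an adjusted p under 0.05. Only Prkar1a (0.25) and Akap12 (-0.30) are orange, both in the comparison of PTH with YKL-05-093, where the intervals are narrower than in the comparisons with vehicle.

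Akap12 is one of a large family, and the other A-kinase anchoring proteins were read from a fixed list of 15 genes, of which 10 passed the filter. The 3 most abundant were Akap8 and Akap8l, which encode nuclear anchors, and Akap1, which encodes the anchor of the mitochondrial outer membrane. Akap1 was the only one that changed against vehicle: it measured 17.7 and 15.2 RPKM with vehicle, 9.09 and 8.66 RPKM with PTH, and 10.9 and 12 RPKM with YKL-05-093. The PTH libraries were lowest and vehicle highest, with no overlap, and the PTH difference from vehicle was -0.88 in log2 (limma, adjusted p = 0.0454). The call was lost without either PTH library, when the spread rests on the vehicle pair (limma, adjusted p up to 0.823). It was also lost with a pseudocount of 0.01 RPKM, without the filter and with the spread trended on the mean value (limma, adjusted p up to 0.145). With YKL-05-093, 0 of the 10 changed by limma.

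Against YKL-05-093, 3 of the 10 other anchors were lower with PTH and 0 were higher. Akap6, which encodes an anchor of the nuclear envelope of muscle cells, measured 2.67 and 1.76 RPKM with vehicle, 1.15 and 0.998 RPKM with PTH, and 2.22 and 2.25 RPKM with YKL-05-093, and differed by -0.999 (limma, adjusted p = 6.7e-06). The YKL-05-093 libraries of Akap6 lay inside the vehicle range and the PTH libraries below it, as a description. Akap1 differed by -0.37 (limma, adjusted p = 0.00492) and Akap8l by -0.29 (limma, adjusted p = 0.0361). With all 6 libraries in 1 fit all 3 calls were lost (Akap6 at an adjusted p of 0.0719 by limma), and those of Akap1 and Akap8l also without the filter and with the spread trended on the mean value. Akap6 held without any 1 library, Akap1 lost its call without PTH replicate 2 (limma, adjusted p = 0.0716), and Akap8l lost its call without any 1 of the 4 (0.057 to 0.225). Over the 10 the difference was negative for 6, and the 4 higher with PTH (Akap7, Akap9, Akap10 and Akap11, at 0.22 to 0.28) did not pass. Over all genes 5.11% were lower and 4.85% higher.

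**Figure D5:**
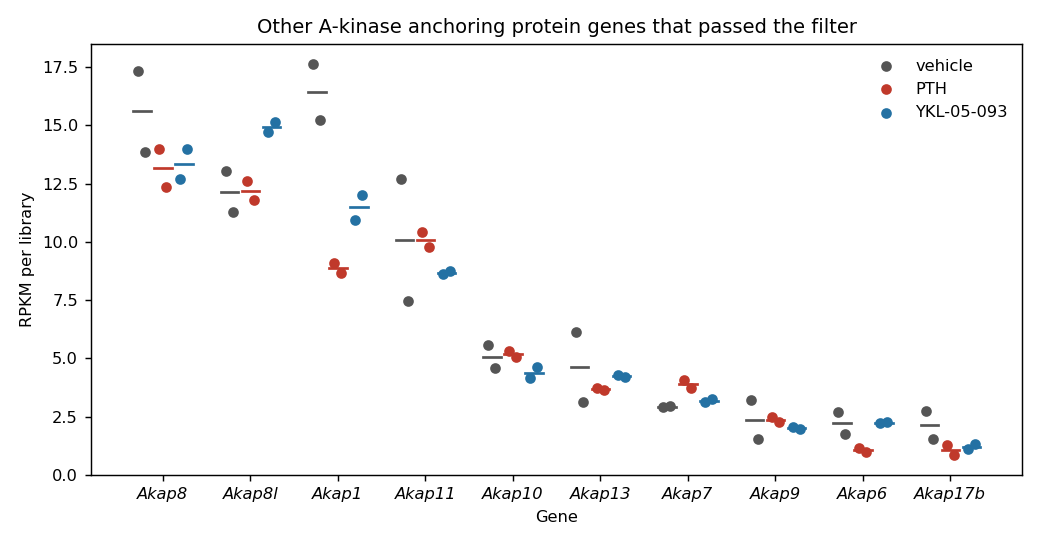
RPKM of the 10 other A-kinase anchoring protein genes that passed the filter, ordered by mean level, with 1 point per library and a bar at each condition's mean. Akap1 is lowest with PTH (9.09 and 8.66 RPKM) and highest with vehicle (17.7 and 15.2 RPKM), and the vehicle pairs of most genes are spread more widely than the treated pairs.

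Of 19 genes with other names whose proteins anchor PKA or turn over its subunits, 15 passed the filter and 0 changed against vehicle with either agent. Between PTH and YKL-05-093, 1 of the 15 was higher and 2 were lower with PTH, where 4.85% and 5.11% of all genes tested were. Ezr, which encodes the membrane-cytoskeleton linker ezrin, was higher with PTH by 0.38 (limma, adjusted p = 0.00686). Cmya5 and Synm, which encode myospryn and the intermediate filament protein synemin, were lower, with differences of -0.87 (limma, adjusted p = 4.54e-05) and -0.27 (limma, adjusted p = 0.0447). Ezr lost its call without PTH replicate 1 (limma, adjusted p = 0.107) and Synm without any 1 library (0.0896 to 0.191), while Cmya5 kept it in each such fit. All 3 lost their calls with the spread trended on the mean value and with all 6 libraries in 1 fit.

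Other effectors of cyclic nucleotides were read from a list of 8 genes, of which 4 passed the filter. Prkg2, which encodes the cyclic GMP-dependent kinase II, measured 8.42 and 6.91 RPKM with vehicle, 7.95 and 7.82 RPKM with PTH, and 2.64 and 2.92 RPKM with YKL-05-093. It was low only in the YKL-05-093 libraries, which differed from vehicle by -1.43 (limma, adjusted p = 0.0257; 0.0604 without YKL-05-093 replicate 1, and up to 0.175 without the filter or with the other trend), and PTH exceeded YKL-05-093 by 1.47 (limma, adjusted p = 1.17e-08). Rapgef3, which encodes the cyclic AMP-activated exchange factor EPAC1, measured 1.15 and 1.08 RPKM with vehicle, 2.08 and 1.94 RPKM with PTH, and 0.953 and 1.01 RPKM with YKL-05-093. PTH exceeded YKL-05-093 by 0.96 (limma, adjusted p = 5.49e-05), and its difference of 0.80 from vehicle did not pass (limma, adjusted p = 0.0624). Of the 4 genes, 2 were thus higher and 0 lower with PTH than with YKL-05-093, beside 4.85% and 5.11% of all genes tested.

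In the same libraries the genes known as outputs of cyclic AMP and CREB, a list of 8 symbols with Pde4d listed under 2 identifiers, had a median difference from vehicle of 1.90 with PTH and 1.86 with YKL-05-093. Of these 9 entries 7 rose and 0 fell with PTH, and 7 rose and 0 fell with YKL-05-093. Over all genes tested, 2.19% and 0.666% changed in either direction. All of the list's calls against vehicle were lost without the filter on low values. With the spread trended on the mean value, Crem lost its call with PTH. In that fit Fos, Sik1, Pde4b and both Pde4d entries lost theirs with YKL-05-093. The phosphodiesterase gene Pde4b measured 0.453 and 0.421 RPKM with vehicle, 3.21 and 2.93 RPKM with PTH, and 3.00 and 2.89 RPKM with YKL-05-093, a difference from vehicle of 2.56 (limma, adjusted p = 0.000991) and 2.50 (limma, adjusted p = 0.00229). The orphan receptor gene Nr4a2 rose by 2.39 with PTH (limma, adjusted p = 0.00166) and 2.96 with YKL-05-093 (limma, adjusted p = 0.00229), and Nr4a1 by 1.25 and 3.18 (limma, adjusted p = 0.013 and 0.00229). Per1 and Sik1 did not pass with PTH, nor Per1 and Crem with YKL-05-093. Between the agents 4 entries were higher and 4 lower with PTH, where 4.85% and 5.11% of all genes tested were. Of these entries Nr4a1 differed most (-1.93, limma, adjusted p = 2.37e-09). With all 6 libraries in 1 fit, all of these calls except that of Nr4a1 were lost. Fos kept its call in 4 of 10 alternative settings.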

How the data were processed

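Ocy454 RNA was sequenced as rRNA-depleted, directional, paired-end libraries. Per the labels and methods, the authors used CASAVA 1.7, aligned reads to mm10 with STAR, counted genes with HTSeq 0.6.0 on Ensembl 75 and deposited RPKM values. The strand setting and the gene length behind RPKM are not given in the sources used here. Whole reads were recovered from the RPKM steps, and all 26214 genes above 0 gave whole numbers within 0.01 reads. Lengths were chosen to reach this.

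The 14264 genes that reached 0.5 RPKM in 2 or more of the 6 libraries were tested with limma 3.58.1 (R 4.3.3) on log2(RPKM + 0.1), which understates the change of low genes. Each comparison used its own 4 libraries, the prior variance followed the mean number of reads, and p-values were adjusted by Benjamini-Hochberg over all genes tested. Genes with no spread were left out, giving 14261 or 14255 genes. A gene changed at an adjusted p under 0.05. Subunit proportions were compared by exact permutation. Gene positions come from GENCODE M21 (GRCm38), and promoters from RefSeq (GRCm38.p6).

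All 10 members were named, and of each context list those that changed (at most 4 a list and comparison, largest first) and the 3 most abundant anchors. The members and lists were chosen with earlier results of these data known. The fits were also run on simulated data, with the same spread for all genes of a condition. Those runs do not cover the differences in spread between genes of the vehicle pair, and no result here rests on them. The alternatives were other pseudocounts and filters, another trend of the spread, 1 fit of all libraries, median-ratio scaling, voom, length and GC correction, a replicate block and leaving out each library.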

Additional observations from a re-analysis of the deposited data

How the results depend on the processing

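Over 336 recomputed differences of single members, 292 kept their direction and their side of the threshold, and 12 changed sign, whether or not they passed. Of those that kept their sign, 21 newly passed and 11 no longer passed. The number of genes that changed was 313 with PTH, 95 with YKL-05-093 and 1421 between the agents. Without the filter on low values these were 0, 0 and 302 by limma, with 2343, 1734 and 3424 at an unadjusted p under 0.05. They were 162, 6 and 499 with the spread trended on the mean value, 567, 285 and 146 with all 6 libraries in 1 fit, and 326, 96 and 1552 by voom on the recovered reads. With length and GC trends removed they were 866 with PTH and 438 with YKL-05-093, and a pseudocount of 1 RPKM gave 55 with YKL-05-093. Of the members, 1 changed with PTH after the length and GC correction, and between the agents 0 changed without the filter, with the other trend or in 1 fit (limma, with 3, 3 and 0 members at an unadjusted p under 0.05, beside 14.1%, 19.4% and 8.5% of all genes). The causes were not tested.

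Leaving out 1 library at a time gave 189 to 6443 genes changed with PTH, 85 to 5212 with YKL-05-093 and 729 to 1470 between the agents, and 0 to 5, 0 to 4 and 0 to 2 members. The highest counts against vehicle came without a vehicle library, where the spread rests on the treated pair alone. Signs turned in these fits for Pkig (-0.10 to 0.34) and Akap12 (-0.79 to 0.13) with PTH. With YKL-05-093 they turned for Prkacb (-0.34 to 0.0755), Prkar1a (-0.0733 to 0.20), Prkar1b (-0.26 to 0.00751), Pkig (-0.30 to 0.14) and Akap12 (-0.49 to 0.43), and between the agents for Prkaca (-0.0200 to 0.00335). With YKL-05-093, Prkacb was also at 0.00631 and Akap12 at 0.0486 after length and GC correction, and Akap12 at 0.0134 after median-ratio scaling. The difference in catalytic over regulatory RPKM ran from -0.137 to 0.0264 with PTH and -0.027 to 0.137 with YKL-05-093, in the Prkacb percentage from -3.95 to 0.754 and -2.98 to 1.73, and in Pkig over catalytic RPKM from -0.00116 to 0.0222 and -0.0118 to 0.0115.

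The replicate numbers did not pair the libraries (correlations of deviations -0.03, -0.05 and -0.05). With a replicate block 758 genes changed with PTH and 301 with YKL-05-093, and Prkar2b passed between the agents (limma, adjusted p = 0.0393). With 2 libraries per condition, Pkia and Pkib could not be compared at this depth.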
